A study of Mus musculus with 9 samples.

Results

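S100 proteins, annexins and galectins are cytosolic proteins that reach the plasma membrane and, in part, the outside of the cell, and all 3 families are known from injured and inflamed tissue. The genes described here were taken from the deposited footprint table by a rule on symbols that uses no measured value. Earlier results of these data were known when they were chosen. They are the numbered S100a genes with S100b, S100g and S100pbp (16 rows), the numbered annexin genes (12 rows) and the numbered galectin genes with Lgals3bp (10 rows), together 38 of 36410 rows. S100pbp encodes a protein that binds an S100 protein and is itself no S100 protein, and Lgals3bp encodes a secreted glycoprotein that binds galectins and is itself no galectin.

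The study asked what part the DNA sensor cGAS plays in the inflammatory and autophagy responses of Huntington disease (HD) cells, and read ribosome occupancy of mRNAs to that end. Ribosome footprints are stretches of mRNA kept from nuclease by a bound ribosome. They were counted in 3 libraries each of control cells (STHdhQ7/Q7), heterozygous HD-het cells (STHdhQ7/Q111) and homozygous HD-homo cells (STHdhQ111/Q111). Control cells carry Htt alleles encoding 7 glutamines, wild-type in number though the labels call them knock-in, the HD-het line 1 allele with 7 and 1 with 111, and the HD-homo line 111 glutamines on both. All are immortalized mouse striatal cells labelled as strain C57/BL6, and all were held in cycloheximide for 10 min before harvest. Each genotype is 1 cell line, so genotype and line cannot be told apart, and p-values measure the spread between libraries of a line, for which separate cultures are not named in the labels.

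Library totals ran from 22504543 to 41888701 counts, and the lowest correlation between log2 counts of replicate libraries was 0.99 across genes, which are not independent replicates. Values are in CPM, counts per 1e6 of a TMM-scaled library total, and a row at 0 could hold up to 3 counts by chance, which in 1 library equals 0.0714 to 0.142 CPM. That limit covers counting error only. The label of striatal cells was set against 9 medium spiny neuron markers, which summed to 43.8 to 50.5 CPM in control, 47.0 to 50.9 in HD-het and 67.6 to 75.2 in HD-homo. Foxp1 (means of 33.4, 43.1 and 56.9 CPM in that order) and Ppp1r1b, the dopamine signalling protein DARPP-32 (12.04, 5.18 and 10.5), made up most of it, Penk was low (1.42, 0.824 and 2.92), and the dopamine receptors Drd1 and Drd2 were at 0 in all 9 libraries. The 8 neural precursor markers summed to 9718 to 9987 CPM in control, 9095 to 9936 in HD-het and 6153 to 6695 in HD-homo, nearly all of it Vim (9228, 8275 and 6197). Nes (399.5, 1086 and 7.01) and Sox2 (51.1, 33.9 and 2.26) were far lower in HD-homo, and Gsx2 was at 0 in all libraries. Dlx2 (9.25, 2.11 and 19.9) and Dcx (0.111, 0.0686 and 0.307) were highest in HD-homo, while Tubb3 (101, 84.1 and 102) and Map2 (46.5, 55.3 and 44.3) differed less. The 6 fibroblast and mural markers summed to 2338 to 4262 CPM in control, 15114 to 18397 in HD-het and 5216 to 6562 in HD-homo, most of it Col1a1 (3343, 16518 and 4567). Pdgfrb was also highest in HD-het (45.9, 354 and 56.3), whereas Col1a2 (24.0, 88.9 and 1027), Pdgfra (3.81, 6.85 and 155), Dcn (7.30, 11.5 and 40.6) and Lum (0, 0.0249 and 0.267) were highest in HD-homo. The part of such differences in the results below was not tested.

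S100 proteins are small EF-hand dimers that change shape on binding calcium and then grip target proteins. Annexins bind acidic phospholipids when calcium rises, and they bridge membranes to the cortical cytoskeleton, sort endosomes and plug wounds in the plasma membrane. The families meet directly, since S100A10 pairs with annexin A2 and S100A11 with annexin A1. Galectins bind beta-galactosides on glycoproteins, leave the cell without a signal peptide and collect on damaged lysosomes, and galectin-3 and galectin-9 are well known from activated microglia and macrophages.

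Lgals9, Lgals3bp, Lgals3 and S100a16 exceeded control more than 10-fold in HD-homo, and the 120 bases before the annotated start of each are shown because these carried the largest differences. The bases lie at chr11:78984925-78985044 and chr11:118401960-118402079 on the minus strand, and at chr14:47373740-47373859 and chr3:90537134-90537253 on the plus strand (RefSeq, mouse build GRCm38.p6; for S100a16 the upstream one of its start sites). Capitals mark a match to the core of the interferon-stimulated response element, GAAANNGAAA on either strand, in the gene's own direction.
Lgals9: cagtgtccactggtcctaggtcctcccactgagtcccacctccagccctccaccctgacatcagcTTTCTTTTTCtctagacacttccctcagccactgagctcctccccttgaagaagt
Lgals3bp: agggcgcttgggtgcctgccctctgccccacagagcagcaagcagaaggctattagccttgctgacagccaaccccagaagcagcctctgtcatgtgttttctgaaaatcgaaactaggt
Lgals3: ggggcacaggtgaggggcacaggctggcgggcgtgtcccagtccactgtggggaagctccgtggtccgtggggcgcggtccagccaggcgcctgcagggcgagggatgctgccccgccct
S100a16: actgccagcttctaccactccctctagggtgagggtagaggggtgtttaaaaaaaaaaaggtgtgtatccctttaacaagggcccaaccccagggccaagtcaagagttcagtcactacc

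The element was searched on both strands in the 250 bases before each start, in 37 windows of 29 of the 38 genes. It was found in 1 window, that of Lgals9, where it began 55 bases before the start, and in 2.98% of the 32851 windows of all genes. The AP-1 letters (TGANTCA) were found in 4 windows, those of Anxa10, Anxa2, S100a11 and the second window of S100a16, and in 6.75% of all. Only full matches were counted, so a window without one can still hold a near match. A match is a string of letters only, and binding was not measured.

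Of the 38 genes, 26 passed the filter on low counts and were tested, 10 S100, 10 annexin and 6 galectin genes. A gene that passed only through the line in which it is high had to differ, so counts over the 26 describe the tested genes and not the families. All 26 differed somewhere among the lines by edgeR's quasi-likelihood test (adjusted p under 0.05), against 78.4% of the 12678 genes tested. In HD-het against control, 6 were higher (23.1%, with 31% of all tested genes) and 17 lower (65.4%, with 29.1% of all), and the 3 libraries of each line did not overlap for 23 genes (88.5%, with 71.2% of all). Those lower by at least 2-fold numbered 10, against 6.91% of all tested genes. In HD-homo against control, 12 were higher (46.2%, with 23.3% of all) and 6 lower (23.1%, with 22.3% of all), and 22 did not overlap (84.6%, with 55.5% of all). Those higher by at least 2-fold numbered 8, against 8.94% of all. In such bulk cultures, fewer expressing cells and fewer footprints per cell cannot be told apart. Both comparisons use the same control libraries and are not independent.

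HD-homo against HD-het gave 18 higher (69.2%, with 34.6% of all) and 2 lower genes (7.69%, with 32.8% of all), and 23 did not overlap (88.5%, with 69.5% of all). The median log2 fold change of the 26 was -0.52 in HD-het against control, 0.17 in HD-homo against control and 0.71 in HD-homo against HD-het. Over all tested genes these medians were 0.019, 0.017 and 0.017. HD-het cells were lower than both other lines for 14 of the 26 genes, against 21.9% of all tested genes. When a trend in coding length and GC content was removed from each library, the split in HD-homo against control moved from 12 higher and 6 lower to 9 higher and 9 lower. That setting was added after seeing the data.

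The 3 families together took 2.51% ± 0.0728 of all footprint counts in control (SD, n = 3 here and below), 1.33% ± 0.065 in HD-het and 2.31% ± 0.0947 in HD-homo. S100 genes took 1.19% ± 0.0136, 0.516% ± 0.0465 and 1.11% ± 0.0536 in the same order. Galectin genes took 0.64% ± 0.0504, 0.248% ± 0.0116 and 0.443% ± 0.044. Annexin genes took 0.681% ± 0.027, 0.567% ± 0.0258 and 0.754% ± 0.0356. Across control, HD-het and HD-homo, S100a6 alone took 0.663%, 0.272% and 0.599% of counts, and Lgals1 took 0.632%, 0.238% and 0.332%.

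**Figure D1:**
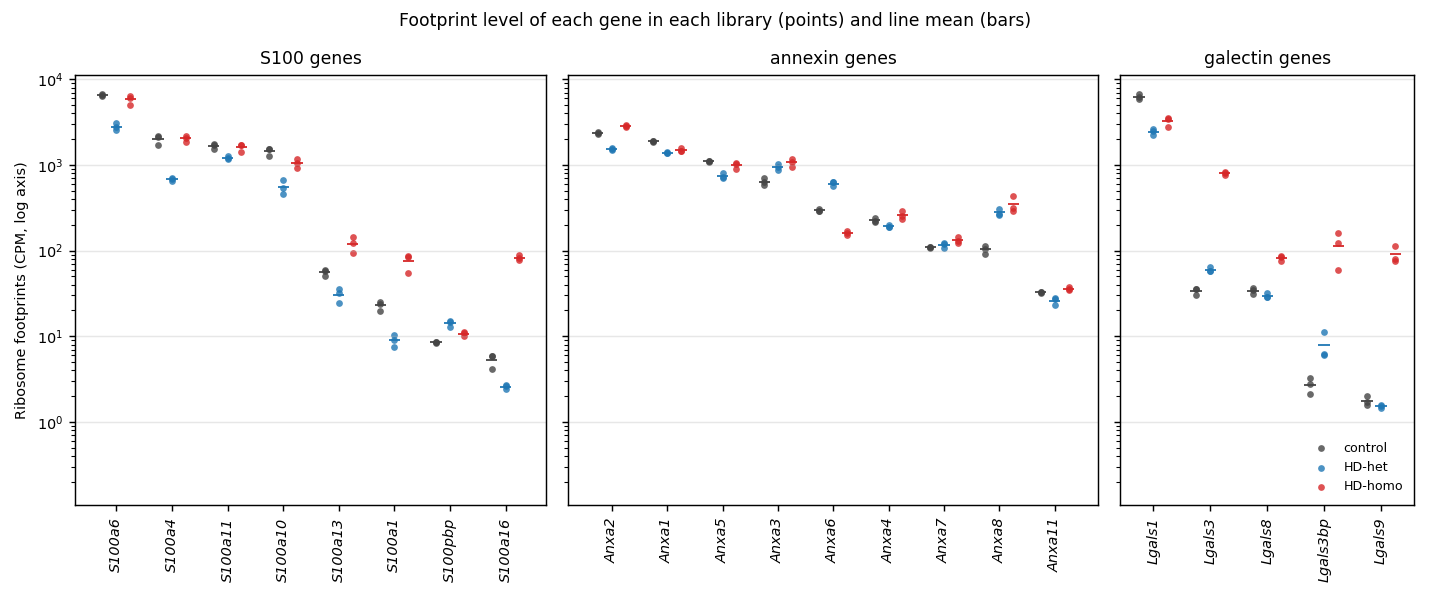
Footprint level in CPM (log axis) of the 22 genes with a mean of at least 10 CPM in their highest line, 1 point per library and a short bar at each line's mean. Most of the abundant S100 genes and Lgals1 lie lowest in HD-het, while Lgals3, Lgals9, Lgals3bp and S100a16 stand apart in HD-homo.

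S100a6, S100a4, S100a10 and S100a11, the abundant S100 genes, fell in HD-het, and in HD-homo only S100a10 passed as different from control. S100A6 (calcyclin) binds annexins and the ubiquitin ligase adaptor CacyBP. S100a6 stood at 6714, 6655 and 6422 CPM in control, 2761, 3095 and 2538 in HD-het and 6117, 5037 and 6416 in HD-homo. The HD-het libraries lay below all others, 2.36-fold under control (log2 fold change -1.24, SE 0.11, adjusted p = 3.28e-06). HD-homo and control libraries did not overlap either, but their difference did not pass (log2 fold change -0.17, SE 0.10, adjusted p = 0.206) unless the length and GC trend was removed (-0.31, adjusted p = 0.045). For S100a6, HD-homo stood 2.09-fold above HD-het (log2 fold change 1.07, SE 0.11, adjusted p = 5.02e-06).

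S100A4 binds non-muscle myosin and is known from motile mesenchymal cells. S100a4 stood at 2114, 2183 and 1723 CPM in control, 685, 708 and 656 in HD-het and 2082, 1878 and 2173 in HD-homo. The HD-het libraries were lowest, 2.94-fold under control (log2 fold change -1.55, SE 0.10, adjusted p = 5.50e-07) and 2.99-fold under HD-homo (log2 fold change 1.58, SE 0.10, adjusted p = 1.94e-07). Control and HD-homo libraries overlapped (log2 fold change 0.027, SE 0.10, adjusted p = 0.848), and the sign of that small difference turned when control replicate 3 (-0.073) or HD-homo replicate 3 (-0.018) was left out.

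S100A10, locked in a calcium-free active form, pairs with annexin A2 and carries channels and plasminogen to the cell surface. S100a10 stood at 1525, 1258 and 1553 CPM in control, 668, 459 and 538 in HD-het and 934, 1175 and 1066 in HD-homo. HD-het was lowest (2.61-fold under control, log2 fold change -1.38, SE 0.14, adjusted p = 1.17e-05), and HD-homo lay between (log2 fold change -0.45, SE 0.14, adjusted p = 0.022 against control). That second call was lost on leaving out control replicate 1 or 3 or HD-homo replicate 1 or 3, with adjusted p up to 0.0745. HD-homo against HD-het gave log2 fold change 0.93, SE 0.14, adjusted p = 1.29e-04.

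S100A11 pairs with annexin A1. S100a11 stood at 1729.7, 1551 and 1749.7 CPM in control, 1273, 1172 and 1201 in HD-het and 1409.7, 1730.4 and 1692 in HD-homo. HD-het libraries lay below all others (log2 fold change -0.46, SE 0.095, adjusted p = 0.00136 against control), and control and HD-homo overlapped (log2 fold change -0.058, SE 0.094, adjusted p = 0.651), a difference that passed as -0.27 with the length and GC trend removed (adjusted p = 0.00947). The rise from HD-het to HD-homo (log2 fold change 0.41, SE 0.094, adjusted p = 0.00256) ended and turned to -0.038 (adjusted p = 0.657) when the trend in coding length and GC content was removed. Of the 28-base words in the S100a11 coding sequence, 89.3% occur elsewhere in the genome, and how reads with several matches were handled is not stated, so its counts are uncertain.

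The next S100 genes separated HD-homo from both other lines. S100A16 is a widely expressed member that binds calcium weakly, and S100a16 lies at chr3:90537254-90543151. S100a16 stood at 5.96, 5.87 and 4.18 CPM in control, 2.39, 2.61 and 2.69 in HD-het and 82.1, 77.3 and 89.7 in HD-homo. It was 2.09-fold lower in HD-het than in control (log2 fold change -1.06, SE 0.15, adjusted p = 1.13e-04) and 15.5-fold higher in HD-homo (log2 fold change 3.95, SE 0.14, adjusted p = 2.57e-09). Its 9 libraries fell into 3 groups without overlap, in the order HD-het, control, HD-homo.

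S100A1 is known from muscle, where it acts on calcium release, and S100A13 helps export FGF1 from the cell. S100a1 stood at 25.2, 19.9 and 23.6 CPM in control, 10.5, 7.53 and 9.08 in HD-het and 54.1, 85.0 and 85.7 in HD-homo. S100a13 stood at 59.1, 50.4 and 57.9 CPM in control, 31.7, 35.9 and 24.3 in HD-het and 94.1, 121 and 144 in HD-homo. Both were lowest in HD-het and highest in HD-homo. S100a1 gave log2 fold change -1.35, SE 0.19, adjusted p = 1.09e-04 in HD-het and log2 fold change 1.71, SE 0.18, adjusted p = 1.58e-05 in HD-homo against control. S100a13 gave log2 fold change -0.86, SE 0.17, adjusted p = 9.74e-04 and log2 fold change 1.10, SE 0.16, adjusted p = 2.28e-04. The genes lie head to head on opposite strands and overlap by 98 bases, none of them coding, and the use of strand in counting is not stated.

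S100pbp, the binding partner that is no S100 protein, moved the other way. S100pbp stood at 8.67, 8.54 and 8.39 CPM in control, 12.9, 15.0 and 14.7 in HD-het and 10.2, 10.8 and 11.1 in HD-homo. It was higher in HD-het than in control (log2 fold change 0.73, SE 0.10, adjusted p = 9.02e-05) and lower in HD-homo than in HD-het (log2 fold change -0.41, SE 0.10, adjusted p = 0.00345). Its rise in HD-homo against control (log2 fold change 0.32, SE 0.10, adjusted p = 0.023) was lost when any control replicate or HD-homo replicate 3 was left out, with adjusted p up to 0.0718, and also with no filter or with the length and GC trend removed.

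S100a3, known from hair cuticle, and S100a5, known from olfactory neurons, stayed under 10 CPM in every line. S100a3 stood at 6.53, 5.30 and 7.22 CPM in control, 1.40, 1.24 and 1.23 in HD-het and 4.34, 5.20 and 4.08 in HD-homo. S100a5 stood at 1.07, 0.69 and 1.20 CPM in control, 0.38, 0.0825 and 0.142 in HD-het and 0.528, 0.688 and 0.576 in HD-homo. S100a3 was lowest in HD-het (log2 fold change -2.29, SE 0.18, adjusted p = 1.58e-06 against control), and so was S100a5 (log2 fold change -2.30, SE 0.44, adjusted p = 9.49e-04), whose value without HD-het replicate 1 was -3.16. S100a3 passed as lower in HD-homo than in control (log2 fold change -0.48, SE 0.16, adjusted p = 0.0265), a call lost without control replicate 1 or 3 or HD-homo replicate 1 or 3. S100a5 missed the threshold there (log2 fold change -0.70, SE 0.36, adjusted p = 0.139), and its rise from HD-het to HD-homo (log2 fold change 1.60, SE 0.48, adjusted p = 0.0115) was lost without HD-het replicate 2 (adjusted p = 0.0626).

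Of the 16 S100 rows, 13 lie on chromosome 3 over 3.05 Mb, S100a1 to S100a9 within 185 kb and S100a11 and S100a10 beyond a gap of 2.82 Mb. All 9 tested genes of this stretch were lower in HD-het than in control, against 29.1% of all tested genes. In HD-homo against control, the first 3 tested in gene order, S100a1, S100a13 and S100a16, were higher, while S100a3 and S100a10 were lower and S100a4, S100a5, S100a6 and S100a11 did not pass. S100a8 and S100a9, which form the calprotectin of neutrophils, gave at most 3 and 0 counts in any library, and S100b, the astrocyte member, at most 3. S100a2, S100a14 and S100g reached at most 7, 5 and 3 counts.

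**Figure D2:**
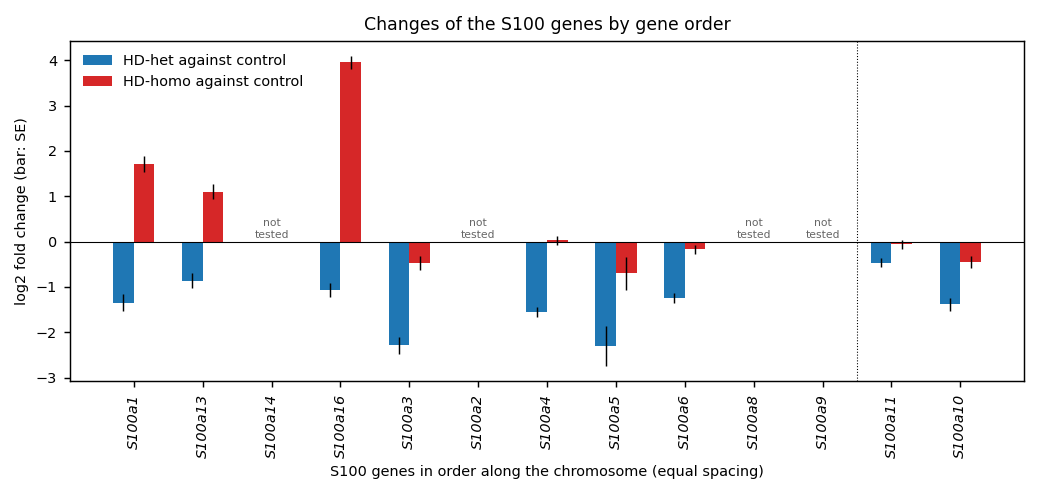
Log2 fold change against control of the chromosome 3 S100 genes in gene order at equal spacing, with SE as bars, for HD-het (blue) and HD-homo (red), and a dotted line at the 2.82 Mb gap. All tested genes lie below 0 in HD-het, and S100a1, S100a13 and S100a16 rise above 0 in HD-homo.

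Annexin genes split by member. Annexin A2 is the S100A10 partner and a plasminogen receptor. Anxa2 stood at 2301, 2361 and 2453 CPM in control, 1543, 1575 and 1496 in HD-het and 2820.1, 2811 and 2964 in HD-homo. Its libraries fell into 3 groups without overlap, lowest in HD-het (log2 fold change -0.62, SE 0.07, adjusted p = 2.18e-05 against control) and highest in HD-homo (log2 fold change 0.90, SE 0.071, adjusted p = 8.45e-07 against HD-het). HD-homo against control gave log2 fold change 0.27, SE 0.07, adjusted p = 0.00825, a call lost without control replicate 1 (adjusted p = 0.0554) and with the length and GC trend removed (adjusted p = 0.0682).

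Annexin A1 is a mediator of glucocorticoid action that resolves inflammation, and annexin A5 is the phosphatidylserine binder used to stain dying cells. Anxa1 stood at 1854, 1906 and 1900.0 CPM in control, 1371, 1407 and 1375 in HD-het and 1444, 1579.5 and 1447 in HD-homo. Anxa5 stood at 1107, 1093 and 1119.5 CPM in control, 726, 811 and 703 in HD-het and 906, 1034 and 1049.9 in HD-homo. Anxa1 was lower than control in HD-het (log2 fold change -0.45, SE 0.071, adjusted p = 2.54e-04) and in HD-homo (log2 fold change -0.34, SE 0.071, adjusted p = 0.00235). Anxa5 was lower in HD-het (log2 fold change -0.57, SE 0.086, adjusted p = 1.78e-04), while HD-homo against control missed the threshold (log2 fold change -0.15, SE 0.086, adjusted p = 0.174) until the length and GC trend was removed (-0.30, adjusted p = 0.0117).

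Annexin A6 is the family's double-sized member, which scaffolds cholesterol-rich membranes, and it alone had a pattern of higher in HD-het and lower in HD-homo among the 26. Anxa6 stood at 294, 303 and 288 CPM in control, 630.5, 627 and 566 in HD-het and 163, 169 and 151 in HD-homo. HD-het was 2.06-fold above control (log2 fold change 1.04, SE 0.079, adjusted p = 1.31e-06), and HD-homo 1.83-fold below it (log2 fold change -0.87, SE 0.079, adjusted p = 4.30e-06). HD-homo lay 3.77-fold under HD-het (log2 fold change -1.92, SE 0.081, adjusted p = 6.55e-09), with no overlap among the 3 lines.

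Anxa3 and Anxa8 were higher in both mutant lines. Anxa3 stood at 627, 589 and 706 CPM in control, 937, 883 and 1038 in HD-het and 945, 1086 and 1184 in HD-homo. Anxa8 stood at 114, 106 and 91.1 CPM in control, 271, 263 and 305 in HD-het and 315, 291 and 436 in HD-homo. Annexin A3 is known from neutrophils and injured microglia, and annexin A8 from late endosomes. Against control, Anxa8 gave log2 fold change 1.43, SE 0.15, adjusted p = 1.15e-05 in HD-het and log2 fold change 1.74, SE 0.15, adjusted p = 2.82e-06 in HD-homo, and Anxa3 gave log2 fold change 0.57, SE 0.11, adjusted p = 7.30e-04 and log2 fold change 0.74, SE 0.11, adjusted p = 1.68e-04. The mutant lines did not pass against each other for Anxa8 (log2 fold change 0.31, SE 0.14, adjusted p = 0.0746) or Anxa3 (log2 fold change 0.17, SE 0.11, adjusted p = 0.176). Anxa8 passed there with total counts (0.39, adjusted p = 0.0158), without HD-homo replicate 2 (0.43, adjusted p = 0.0193) and with the length and GC trend removed (0.33, adjusted p = 0.042), and Anxa3 with total counts (0.25, adjusted p = 0.0461).

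Anxa4 and Anxa11 were lowest in HD-het, and Anxa7 had its highest mean in HD-homo. Annexin A4 is a protein of epithelial membranes, annexin A7 a fusion factor once called synexin, and annexin A11 an RNA granule tether. Anxa4 stood at 221, 218 and 239 CPM in control, 197, 191 and 188 in HD-het and 252, 290.4 and 235 in HD-homo. Anxa7 stood at 112, 110.5 and 107 CPM in control, 121, 119 and 108 in HD-het and 121, 145 and 131 in HD-homo. Anxa11 stood at 33.0, 32.5 and 31.9 CPM in control, 26.9, 28.02 and 23.3 in HD-het and 35.2, 37.3 and 34.9 in HD-homo. Anxa4 and Anxa11 were lower in HD-het than in control (log2 fold change -0.23, SE 0.089, adjusted p = 0.0406, and log2 fold change -0.31, SE 0.089, adjusted p = 0.0103), and the Anxa4 call was lost without any one of the 6 libraries compared, with adjusted p up to 0.131. Both were higher in HD-homo than HD-het (Anxa4 log2 fold change 0.43, SE 0.089, adjusted p = 0.00119, and Anxa11 log2 fold change 0.45, SE 0.089, adjusted p = 8.35e-04). Anxa7 passed in HD-homo against control (log2 fold change 0.27, SE 0.085, adjusted p = 0.0221), a call lost without any control replicate, without HD-homo replicate 2 and with the length and GC trend removed. HD-homo against HD-het missed the threshold for Anxa7 (log2 fold change 0.19, SE 0.085, adjusted p = 0.0682) but passed with total counts, without HD-homo replicate 1 and with the trend removed (adjusted p = 0.0319, 0.0233 and 0.00933). In the Anxa11 coding sequence 31.4% of 28-base words occur elsewhere in the genome, so its counts are uncertain. Anxa9 stayed under 10 CPM and was lower in HD-het (log2 fold change -1.12, SE 0.28, adjusted p = 0.00481), and Anxa10 and Anxa13 gave at most 1 and 3 counts in a library.

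**Figure D3:**
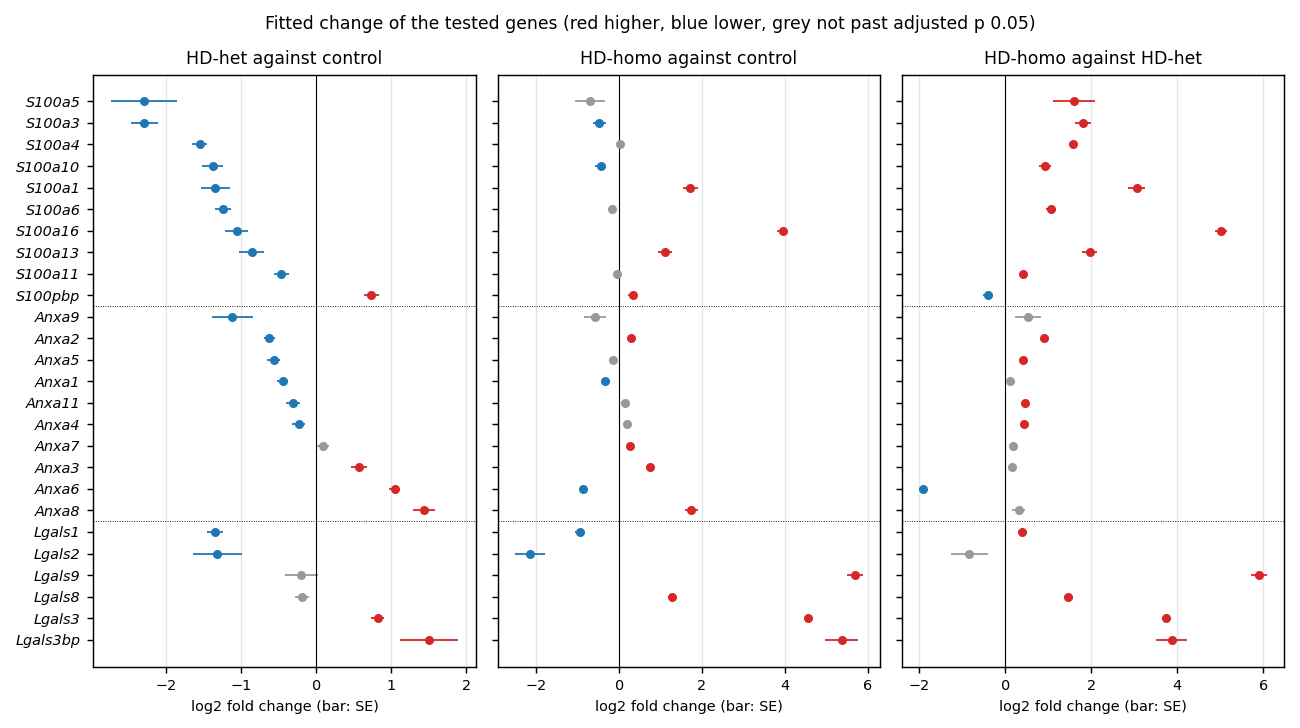
Fitted log2 fold change of the 26 tested genes in the 3 comparisons, with SE as bars. Red points were called higher, blue lower and grey missed the threshold of adjusted p 0.05, and dotted lines part S100, annexin and galectin genes.

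The 3 largest rises in HD-homo against control among the 26 genes were in the galectin group. Galectin-3 (Lgals3, chr14:47373860-47386167) has a tail that lets it cross-link glycans, and it marks broken lysosomes and activated microglia. Lgals3 stood at 35.5, 36.0 and 30.3 CPM in control, 57.6, 57.6 and 64.3 in HD-het and 765, 806 and 833 in HD-homo. HD-het lay 1.76-fold above control (log2 fold change 0.82, SE 0.09, adjusted p = 1.88e-05) and HD-homo 23.6-fold (log2 fold change 4.56, SE 0.10, adjusted p = 1.67e-10), and HD-homo 13.4-fold above HD-het (log2 fold change 3.74, SE 0.10, adjusted p = 3.63e-10). No libraries of different lines overlapped.

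Galectin-9 (Lgals9, chr11:78962979-78984924) has 2 carbohydrate-binding domains and is induced by interferon in many cells. Its upstream window holds the response-element letters printed above, as do 2.98% of the windows of all genes, and their part in its level was not tested. Lgals9 stood at 1.57, 1.69 and 1.99 CPM in control, 1.59, 1.46 and 1.51 in HD-het and 80.5, 76.5 and 115 in HD-homo. The HD-homo libraries alone were high, 51.8-fold above control (log2 fold change 5.69, SE 0.19, adjusted p = 1.78e-09) and 59.5-fold above HD-het (log2 fold change 5.89, SE 0.19, adjusted p = 1.11e-09). HD-het and control gave log2 fold change -0.20, SE 0.22, adjusted p = 0.453.

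Lgals3bp (chr11:118392747-118401959) encodes a secreted scavenger-receptor protein that galectin-3 binds and that interferon can induce. Lgals3bp stood at 3.28, 2.76 and 2.14 CPM in control, 6.26, 6.10 and 11.3 in HD-het and 122, 59.1 and 159 in HD-homo. HD-homo was highest, 41.4-fold above control (log2 fold change 5.37, SE 0.39, adjusted p = 7.76e-07) and its libraries ran from 59.1 to 159 CPM. HD-het lay 2.84-fold above control (log2 fold change 1.504, SE 0.39, adjusted p = 0.00579), and HD-homo 14.6-fold above HD-het (log2 fold change 3.87, SE 0.35, adjusted p = 2.73e-06).

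Galectin-8, which flags vacuoles broken by bacteria for autophagy, is another member with 2 carbohydrate-binding domains. Lgals8 stood at 34.3, 36.2 and 30.9 CPM in control, 28.5, 31.8 and 28.4 in HD-het and 83.7, 75.0 and 87.0 in HD-homo. HD-homo was highest (2.42-fold above control, log2 fold change 1.28, SE 0.10, adjusted p = 9.57e-07), and HD-het missed the threshold against control (log2 fold change -0.19, SE 0.10, adjusted p = 0.103), a difference that passed once the trend in coding length and GC content was removed (-0.36, adjusted p = 0.0055). Of its 28-base coding words 8.1% occur elsewhere in the genome.

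Galectin-1, a dimer that binds integrins and laminin, is made by many cell types. Lgals1 stood at 6175, 5938 and 6733 CPM in control, 2485, 2256 and 2640.1 in HD-het and 2796, 3499 and 3403 in HD-homo. It was lower in HD-het (2.55-fold, log2 fold change -1.35, SE 0.10, adjusted p = 1.55e-06) and in HD-homo (1.94-fold, log2 fold change -0.96, SE 0.10, adjusted p = 1.92e-05) than in control, with no overlap. The step up from HD-het to HD-homo (log2 fold change 0.39, SE 0.10, adjusted p = 0.00526) was lost with the length and GC trend removed (0.14, adjusted p = 0.205). Lgals2 stayed under 10 CPM in all lines and was lower than control in HD-het (log2 fold change -1.32, SE 0.33, adjusted p = 0.00464) and in HD-homo (log2 fold change -2.15, SE 0.36, adjusted p = 5.79e-04). The mutant lines did not pass against each other for Lgals2 (adjusted p = 0.106), and its HD-homo libraries held only 6, 2 and 7 counts. Lgals4, Lgals6, Lgals7 and Lgals12 were not tested, with at most 3, 1, 13 and 1 counts in a library. Besides S100a1 and S100a13, the spans of S100a3, Anxa6, Anxa8, Anxa9, Lgals1 and Lgals2 overlap genes on the opposite strand. Without a stated use of strand the reads of such partners cannot be told apart. S100a3 also overlaps S100a2 on its own strand.

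**Figure D4:**
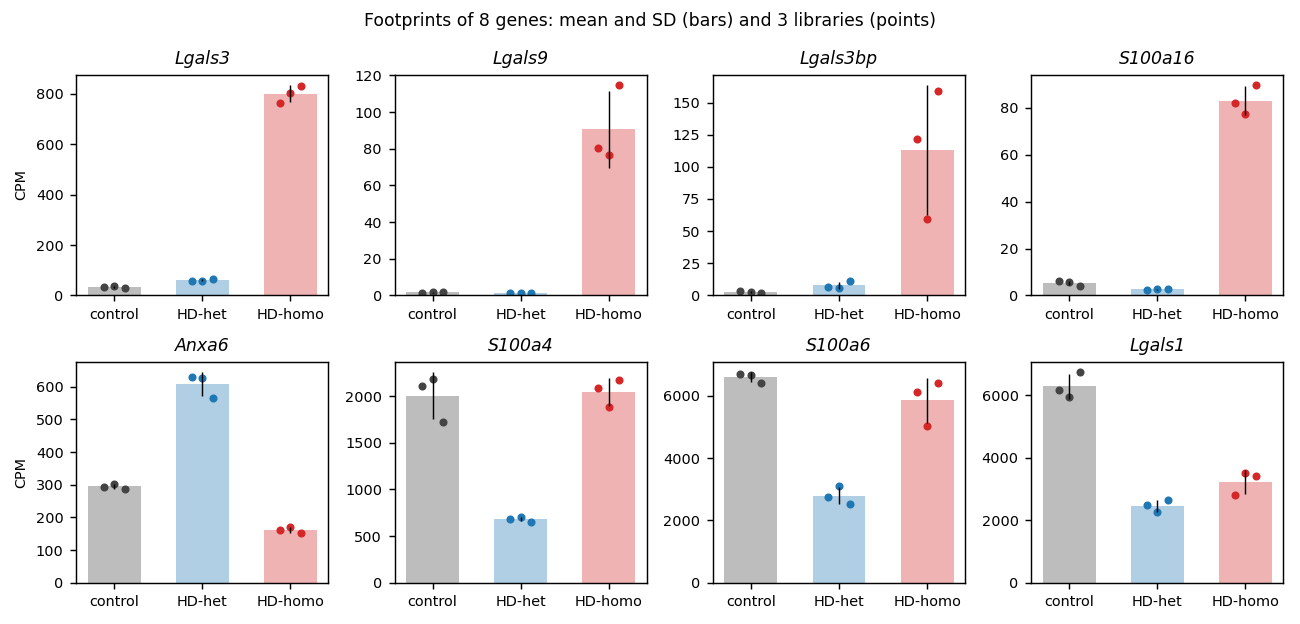
Footprints in CPM of 8 genes, with the mean and SD as bars and the 3 libraries of each line as points. Lgals3, Lgals9, Lgals3bp and S100a16 are highest in HD-homo, Anxa6 is highest in HD-het, and S100a4, S100a6 and Lgals1 are lowest there.

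Microglia and neutrophils, which produce galectin-3, galectin-9 and calprotectin in brain, were looked for by their markers. The 7 microglial markers summed to 5.00 to 6.83 CPM in control, 18.9 to 27.0 in HD-het and 4.82 to 6.21 in HD-homo, and Cx3cr1, a defining receptor, was at 0 in all 9 libraries. Tmem119 made up most of the HD-het sum, with a mean of 21.2 CPM. The 6 neutrophil markers summed to at most 0.0887 CPM. Csf1r, the receptor that keeps microglia alive, had a mean of 1.06 CPM in HD-homo, against 0.339 in control and 0.380 in HD-het. By contrast, P2ry12 (means of 0.288, 0.260 and 0.0185 CPM in control, HD-het and HD-homo), Ptprc (0.144, 0.193 and 0.106) and Tmem119 (5.43, 21.2 and 4.39) were lowest in HD-homo. The part of such cells in the levels of Lgals3, Lgals9 and Lgals3bp was not tested.

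Levels of different genes were compared per kb of coding sequence, since a long coding region holds more ribosomes. In control cells S100a6 led with 24707 ± 579 CPM per kb (SD), followed by Lgals1 with 15511 ± 1008, S100a4 with 6621 ± 819, S100a11 with 5703 ± 372 and S100a10 with 4967 ± 559. Anxa2, with 2332 ± 75.3, was the highest annexin, ahead of Anxa1 with 1818 ± 27.6 and Anxa5 with 1156 ± 13.8. In HD-homo cells Lgals3 reached 1012 ± 42.9 CPM per kb, near Anxa3 with 1106 ± 124 and Anxa5 with 1041 ± 82.8, while its control level was 42.8 ± 3.95. Lgals9 and Lgals3bp held 85.5 ± 19.9 and 65.4 ± 29.1 in HD-homo, values that overlapped within their spread.

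**Figure D5:**
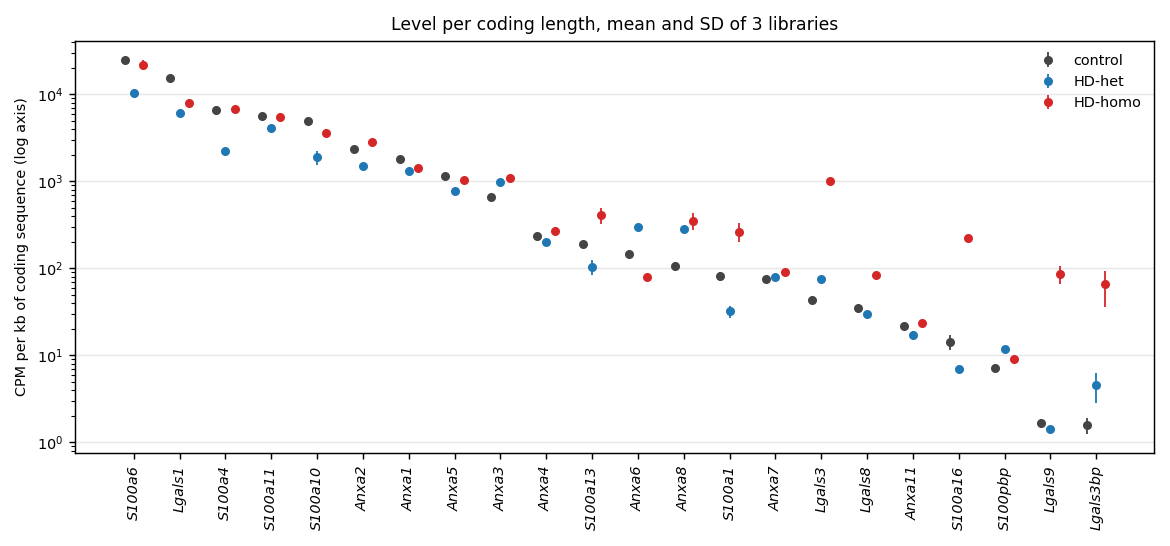
Mean level per kb of coding sequence (log axis) of the 22 genes with at least 10 CPM in 1 line, with SD over 3 libraries as bars, ordered by the control level. S100a6 and Lgals1 lead in every line, and Lgals3 stands in HD-homo beside annexins that exceed it many times in control.

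Genes that work with these families were followed in lists, and the last of the 4 lists held other calcium-binding proteins for comparison. The counts stand beside 31% higher and 29.1% lower of all tested genes in HD-het against control, and 23.3% higher and 22.3% lower in HD-homo against control. Of 17 tested ligands, partners and receptors of S100 proteins and annexins, 5 were higher, 3 lower and 9 not called in HD-het against control (median log2 fold change 0.10), and 1, 4 and 12 in HD-homo against control (median -0.047). The 5 called in HD-homo became 3 without control replicate 2 or without HD-homo replicate 3. Ahnak, a giant scaffold that binds the S100A10 and annexin A2 complex, was higher in HD-het with 3209 ± 589 against 1420.0 ± 329 CPM (log2 fold change 1.18, SE 0.18, adjusted p = 1.82e-04). Ahnak2 was higher there too (log2 fold change 1.32, SE 0.22, adjusted p = 3.01e-04) and lower in HD-homo than in control (log2 fold change -1.44, SE 0.23, adjusted p = 3.34e-04). Pdcd6, a penta-EF-hand partner of annexin A11, rose from HD-het to HD-homo (log2 fold change 1.39, SE 0.08, adjusted p = 7.74e-08).

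Of 13 tested genes of calcium-dependent membrane repair, 3 were higher, 3 lower and 7 not called in HD-het, and 6, 3 and 4 in HD-homo, both against control (medians -0.034 and 0.17). The 6 called in HD-het became 11 with the length and GC trend removed. Dysf, the muscle repair protein dysferlin, stood at 193 ± 27.0 against 82.2 ± 5.95 CPM in HD-het against control (log2 fold change 1.23, SE 0.11, adjusted p = 3.68e-06) and was lower in HD-homo (log2 fold change -1.55, SE 0.11, adjusted p = 6.56e-07). Anxa6 had that order of lines, but so did Ahnak2 and other genes of the lists. Ehd1, a membrane-shaping ATPase, was lower in HD-het (log2 fold change -1.28, SE 0.11, adjusted p = 4.22e-06).

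Of 19 tested galectin ligands and glycan-branching genes, 16 were higher, 1 lower and 2 not called in HD-het against control (median 0.86), where Lgals1 was lower and Lgals3 higher. In HD-homo against control the same list gave 1, 7 and 11 (median -0.10), and in HD-homo against HD-het 0, 16 and 3 (median -0.99, with 34.6% of all tested genes higher and 32.8% lower). Fn1 (fibronectin) gave 14075 ± 4283 against 2723 ± 897 CPM in HD-het against control (log2 fold change 2.37, SE 0.29, adjusted p = 3.83e-05), Itgb1 (integrin beta-1) 7440.0 ± 766 against 2682 ± 599 CPM (log2 fold change 1.47, SE 0.18, adjusted p = 3.36e-05) and Lamp2, a lysosomal glycoprotein, 586 ± 83.3 against 204 ± 49.1 CPM (log2 fold change 1.52, SE 0.17, adjusted p = 2.23e-05). Mcam, an adhesion protein that galectins bind, was lower in HD-homo than in control (log2 fold change -4.94, SE 0.23, adjusted p = 2.19e-08), and so was Itga3, the integrin alpha-3 subunit (log2 fold change -2.70, SE 0.21, adjusted p = 1.31e-06). Fn1 and Itgb1 are also high in fibroblasts, whose markers Col1a1 and Pdgfrb were highest in HD-het and Col1a2, Pdgfra, Dcn and Lum in HD-homo, and the part of such cells in these values was not tested.

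Of 19 tested EF-hand and C2-domain proteins outside the 3 families, 5 were higher, 8 lower and 6 not called in HD-het against control (median -0.17), and 3, 6 and 10 in HD-homo (median -0.018). Cpne8, a copine, was lower in HD-het (log2 fold change -1.77, SE 0.092, adjusted p = 9.19e-08), while Rcn3 (log2 fold change 1.77, SE 0.14, adjusted p = 2.09e-06) and Calu (log2 fold change 1.62, SE 0.15, adjusted p = 5.59e-06), both of the secretory pathway, were higher.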

How the data were processed

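Ribosome footprints of 26 to 32 nt from the 80S fraction were sequenced from 9 libraries of 3 lines. The authors deposited raw counts per gene symbol, not normalized or pooled. Per the submitters' processing notes, cutadapt, Bowtie 1.0.1 and build mm10 were used. The counting program, the annotation, the use of strand and the handling of reads with several matches are not given in the sources used here. Matched mRNA was not used, so no value is relative to mRNA.

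Counts were modelled in edgeR 4.0.16 under R 4.3.3 (with limma 3.58.1), by its quasi-likelihood F test, in 1 fit of all 9 libraries, with TMM factors, filterByExpr by line and Benjamini-Hochberg adjustment over 12678 genes at 0.05. The SE is the log2 fold change over the square root of F. The fit was tested on simulated data. Library totals of 22504543 to 41888701 counts set the precision. Each of the 9 columns carried its library's name. Rows with a date as symbol (26, holding 0.252% of counts) were kept and not named. Positions, coding lengths and upstream windows are from RefSeq (GRCm38.p6), in which 37 of 38 members were found. Level per kb uses the longest RefSeq coding sequence. A result of the motif search is not reported here.

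Members, lists and alternatives were chosen with earlier results of these data known. Members of at least 10 CPM in 1 line were described by library. Genes of the lists were named only where called, with at least 10 CPM and a log2 fold change of at least 1 in size, the 4 largest per list and comparison at most. The alternatives were RLE factors, total counts, DESeq2 1.42.0, a minimum of 10 counts per library or no filter, the 6 libraries compared alone, the replicate number as a block, adjusted p under 0.01 and leaving out each library. Offsets for coding length and GC content (GENCODE M21, 97% of tested genes) were added after seeing the data.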

Additional observations from a re-analysis of the deposited data

How the results depend on the processing

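The counts of members called, higher or lower, kept within 1.5 times of the values given under every alternative run, as did the 14 members lowest in HD-het (11 at adjusted p under 0.01, 13 with length and GC offsets). The number of S100 and annexin partners called in HD-homo against control went from 5 to 3 at adjusted p under 0.01, and from 3 to 6 when single libraries were left out. Membrane repair genes called in HD-het against control went from 6 to 11 with the offsets. Signs turned for values that had missed the threshold. S100a11 in HD-homo against control ran from -0.11 to 0.029 when single libraries were left out, the last without HD-homo replicate 1. S100a4 in that comparison ran from -0.073 (without control replicate 3) to 0.091, was -0.018 without HD-homo replicate 3 and -0.12 with the offsets, and Anxa7 in HD-het against control was -0.13 with the offsets. S100a11 in HD-homo against HD-het turned to -0.038 with the offsets, where it had passed before. The offsets also made S100a6 (-0.31, adjusted p = 0.045), Anxa5 (-0.30) and S100a11 (-0.27) pass as lower in HD-homo than in control. The cause was not tested.

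The data did not show that replicate numbers pair the libraries, and with 3 libraries per line this check cannot exclude it. Same-numbered libraries of different lines had correlated deviations over 0.1 in 1 of 9 pairs (range -0.42 to 0.20). Among differently numbered pairs these were 6 of 18 (range -0.34 to 0.45). Of the 9 libraries, 3 correlated best with their own number. With the replicate number as a block, the members lowest in HD-het numbered 13, all 26 members differed among the lines, and Anxa4 in HD-het against control lost its call (-0.23, adjusted p = 0.0624).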

Other observations

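S100a7a and Lgalsl are relatives whose symbols fall outside the rule, chosen after their values were seen. S100a7a, on the scale of the S100 genes above, stood at 4.96, 5.04 and 7.37 CPM in control, 0.797, 0.962 and 2.93 in HD-het and 7.31, 7.30 and 13.5 in HD-homo. It was lower in HD-het than in control (log2 fold change -1.97, SE 0.42, adjusted p = 0.00199 by edgeR) and missed the threshold in HD-homo (adjusted p = 0.14). Lgalsl, which encodes a galectin-related protein, stood at 15.1, 13.3 and 16.7 CPM in control and was lower in HD-het (-0.52) and in HD-homo (-0.55), with adjusted p of 0.00415 and 0.00434. S100z gave at most 1 count in a library and Grifin 0.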
